A study of Rattus norvegicus with 4 samples.

Results

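A set of 10 genes of bile acid synthesis and transport was followed in 4 rat liver libraries. These are *Cyp7a1*, *Cyp8b1*, *Cyp27a1*, *Cyp7b1*, *Amacr*, *Slc27a5*, *Baat*, *Slc10a1*, *Abcb11*, and *Abcb4*. They were chosen by symbol, and all 10 were found among the 16992 annotated genes, each as 1 row per library and each with a TPM value (the abundance per transcript length that StringTie gives) higher than 2 in all 4 libraries. The left lateral lobes came from male wild type Wistar rats, purchased at 6 weeks of age and kept without food and water for 2 hours before the experiment. One rat inhaled 4.5% sevoflurane and another inhaled 6% desflurane in 50% oxygen for 6 hours, and each agent had its own control rat, which was sacrificed once the same agent had made it lose consciousness. All rats were sacrificed at about the same time of day. The 6 hour rats thus also went without food during the 6 hours of anesthesia, unlike the controls. Time without food and anesthesia cannot be told apart in any comparison of a 6 hour library with a control. With 1 library for each of the 4 conditions, no difference has a replicate check, no p-values were calculated, and rat and condition cannot be told apart.

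Hepatocytes convert cholesterol into bile acids and in this way dispose of it. Cyp7a1 opens the classical route and sets its rate, Cyp27a1 oxidizes the sterol side chain and also opens the alternative route that continues through Cyp7b1, and Cyp8b1 adds the hydroxyl group that makes cholic acid. Amacr, Slc27a5, and Baat complete the side chain and couple the product to taurine or glycine, after which Abcb11 pumps it into bile, Abcb4 adds phospholipid, and Slc10a1 recovers bile acids from portal blood.

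The depth of the libraries was between 4.47 and 5.40 Gb of aligned sequence, and the average read coverage of the 10 genes was between 9.12 and 1252. *Cyp7b1* had a coverage between 9.12 and 14.1 and its values are the least precise, whereas that of the other 9 members was at least 84.0. On the log2(TPM + 1) scale, genes with a TPM value higher than 2 in either library shifted by a median of 0.05 under sevoflurane and 0.11 under desflurane, and values for desflurane should be set against the latter. The 8 hepatocyte markers had summed TPM values between 132491 and 148732, whereas 5 cholangiocyte markers reached sums between 14.5 and 21.4. The sevoflurane control contained RNA for all 7 pancreatic acinar markers, with a sum of 35.1 compared with 0.501 to 2.85 in the other libraries. In whole liver, fewer cells of a type and less RNA per cell cannot be told apart.

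RefSeq promoter sequences of the GRCr8 build were matched for 7 of the 10 members by symbol, and those of *Cyp7a1*, *Cyp7b1*, and *Abcb11* were not matched. The 250 bases before the start are shown for *Cyp8b1*, *Amacr*, *Baat*, and *Cyp27a1*, since the main contrasts described here rest on these genes. The motif AGGTCA, which many nuclear receptors recognize, was searched on both strands and is given in capitals.
Cyp8b1, GRCr8 chr8:130457593-130457842, minus strand: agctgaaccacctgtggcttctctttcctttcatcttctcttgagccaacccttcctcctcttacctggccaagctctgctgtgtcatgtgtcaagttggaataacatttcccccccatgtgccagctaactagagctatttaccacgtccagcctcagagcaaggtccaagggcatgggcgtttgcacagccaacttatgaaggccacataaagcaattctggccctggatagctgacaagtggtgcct
Amacr, GRCr8 chr2:61673085-61673334, plus strand: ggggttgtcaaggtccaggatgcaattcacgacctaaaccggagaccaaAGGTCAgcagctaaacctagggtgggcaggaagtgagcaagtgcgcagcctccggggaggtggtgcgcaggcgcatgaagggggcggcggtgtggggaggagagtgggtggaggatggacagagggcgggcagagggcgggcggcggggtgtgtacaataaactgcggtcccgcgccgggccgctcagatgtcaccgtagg
Baat, GRCr8 chr5:68656138-68656387, minus strand: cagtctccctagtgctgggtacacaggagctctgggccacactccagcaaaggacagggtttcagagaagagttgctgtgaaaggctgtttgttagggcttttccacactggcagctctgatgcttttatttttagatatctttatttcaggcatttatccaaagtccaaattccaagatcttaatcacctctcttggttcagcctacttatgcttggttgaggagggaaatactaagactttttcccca
Cyp27a1, GRCr8 chr9:83713282-83713531, plus strand: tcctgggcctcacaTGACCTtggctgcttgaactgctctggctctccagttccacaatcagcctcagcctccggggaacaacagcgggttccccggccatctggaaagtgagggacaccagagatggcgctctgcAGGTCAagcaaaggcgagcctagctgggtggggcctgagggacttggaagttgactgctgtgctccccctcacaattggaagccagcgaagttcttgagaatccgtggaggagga
AGGTCA was found in the promoters of *Amacr*, *Cyp27a1*, and *Slc10a1*, 3 of the 7 matched members, and in 14% of all 33469 promoters of the same length. None of the 7 contained TCAAGGTCA, the longer motif of Nr5a2, which occurred in 0.39% of all promoters and overlaps the motif above. The D-box of the clock output factors was searched as TTATGTAA, present in 0.83% of promoters, and as its variant TTACGTAA, present in 0.11%, and neither was found in the 7 members. The E-box CACGTG (5.6% of promoters), the forkhead motif TGTTTAC (3.2%), and the inverted repeat of FXR (0.027%) were not found in them either. These matches describe the letters in this window only.

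*Cyp7a1*, on rn6 chr5:19358734-19368431 (minus strand), was the only member upregulated more than 2-fold by either agent relative to its own control, where 2.23% of 9754 genes passed in this direction with sevoflurane and 2.79% of 9855 genes with desflurane. For the sevoflurane pair, the TPM value was 83.5 (control) and 194 (6 hours), and for the desflurane pair it was 70.4 and 101. Both 6 hour libraries were higher than both controls, and the sevoflurane library stood well above the other 3. The fold change was 2.32 with sevoflurane, rank 145 from the highest of 9754 genes, and 1.44 with desflurane. Relative to the control of the other agent, the same libraries were 2.75-fold and 1.21-fold higher. The controls differed from each other by 1.19-fold, which was smaller than the difference for sevoflurane under either control but close to that for desflurane relative to the sevoflurane control.

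*Cyp8b1* (chr8:130548418-130550388, minus strand) was lower with sevoflurane and higher with desflurane. The sevoflurane control had a TPM value of 175, followed by 130 after sevoflurane, 204 in the desflurane control, and 310 after desflurane. The sevoflurane library was therefore the lowest and the desflurane library the highest, with both controls between them. The fold changes were 0.741 with sevoflurane and 1.52 with desflurane, and neither passed the 2-fold limit. The desflurane library was 2.39-fold higher than the sevoflurane library after 6 hours, which made *Cyp8b1* the only member past the limits in this direct comparison, where 2.76% of 9829 genes were higher and 1.17% were lower with desflurane. *Cyp7a1* was 1.91-fold lower with desflurane in the same comparison.

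*Cyp27a1* (chr9:81968523-81998213, plus strand) was higher in both 6 hour libraries. TPM values were 206 and 230 for the sevoflurane pair (control, then 6 hours) and 170 and 293 for the desflurane pair. They correspond to fold changes of 1.12 with sevoflurane and 1.72 with desflurane, and the controls differed by 1.22-fold, so the difference with sevoflurane did not exceed that between the control rats. *Cyp7b1* (chr2:102701904-102871257, minus strand), the oxysterol 7α-hydroxylase of the alternative route, was the least abundant member in every library. Its TPM values were 6.42 and 5.39 for the sevoflurane control and 6 hour library and 7.55 and 5.79 for those of desflurane. Both 6 hour values were lower than both controls, but the largest difference between any pair of libraries was 1.40-fold.

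**Figure D1:**
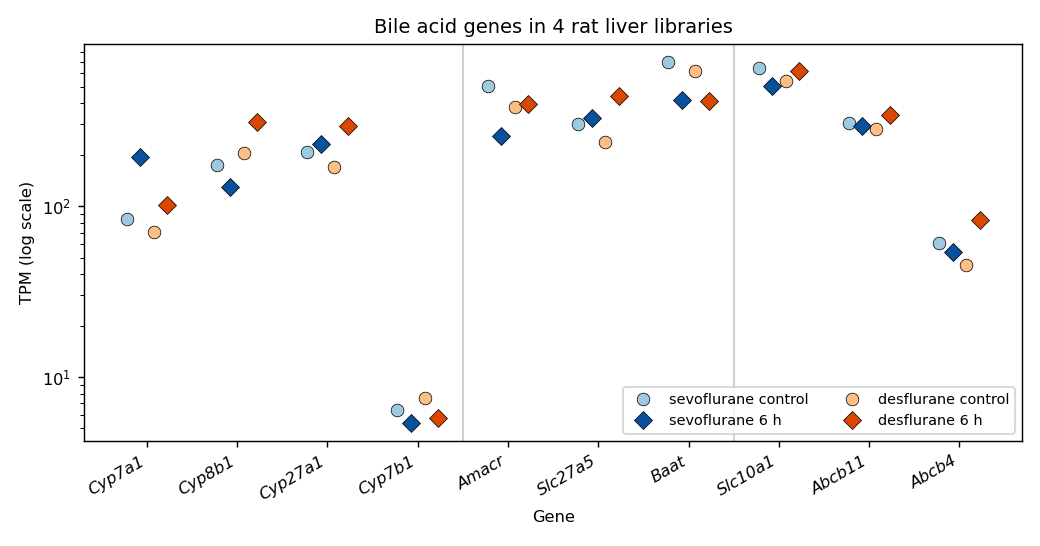
TPM values (log scale) of the 10 genes in the 4 libraries, with circles for controls and diamonds for 6 hours, and grey lines between the *Cyp* enzymes, the side-chain and conjugation enzymes, and the transporters. *Cyp7a1* is highest after sevoflurane (194), *Cyp8b1* is highest after desflurane (310), and *Baat* is lower in both 6 hour libraries than in both controls.

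Since TPM values are per length, the level of one enzyme can be set against that of another within a library, and such a ratio does not change with library scaling. The ratio of *Cyp7a1* to *Cyp8b1* was 0.476 and 0.344 in the controls for sevoflurane and desflurane and 0.326 after desflurane, but 1.49 after sevoflurane, the only library in which *Cyp7a1* exceeded *Cyp8b1*. This holds for the annotated gene models. With the longer *Cyp8b1* model that StringTie assembled, TPM values for *Cyp8b1* were 69.0, 41.7, 75.7, and 91.1 in the sevoflurane control, sevoflurane library, desflurane control, and desflurane library, and *Cyp7a1* exceeded it in 3 of the 4 libraries. The ratio of *Cyp27a1* to *Cyp7a1* was likewise lowest after sevoflurane, at 1.19 compared with 2.47, 2.41, and 2.89 in the sevoflurane control, desflurane control, and desflurane library. The ratio of *Cyp27a1* to *Cyp7b1* was 32.2 and 22.5 in the sevoflurane and desflurane controls and 42.7 and 50.5 in the corresponding 6 hour libraries, and thus higher after 6 hours of either agent.

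Among the enzymes that finish and conjugate the side chain, *Amacr* (chr2:60949276-60961342, plus strand), a racemase that converts the side chain to the form used by peroxisomes, had the lowest fold change of any member for sevoflurane relative to its own control. In TPM, its level was 507 in the sevoflurane control, 257 after sevoflurane, 381 in the desflurane control, and 398 after desflurane. The sevoflurane library was the lowest of the 4. It was 1.98-fold lower than its control, just short of the limit, and the fold change was 0.489 after median-of-ratios scaling and with FPKM and 0.499 after rescaling of the annotated rows, which are past the limit. Relative to the desflurane control it was 1.48-fold lower. With desflurane the fold change was 1.05, and it was 0.784 relative to the sevoflurane control and 0.958 after median-of-ratios scaling. The summed TPM value of 6 Kupffer cell markers was also lowest after sevoflurane, at 226 compared with 333 to 390 in the other libraries, with 6 of 6 markers lower than in the own control, and the part of these cells in the level of *Amacr* was not tested.

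*Baat* (chr5:64768399-64777368, minus strand), which transfers taurine or glycine to the activated bile acid, was lower after 6 hours of both agents. The sevoflurane pair had TPM values of 696 (control) and 420, and the desflurane pair had 617 and 409. The 6 hour libraries did not overlap with the controls, which differed from each other by 1.13-fold. Levels were 1.66-fold lower with sevoflurane and 1.51-fold lower with desflurane, and 1.47-fold and 1.70-fold lower relative to the control of the other agent. The difference did not reach 2-fold in any of these comparisons of the annotated row. In a setting chosen after the data were seen, the row that StringTie assembled at *Baat* gave 0.828-fold with sevoflurane and 0.347-fold with desflurane. The latter is past the limit, but the ends of the assembled row differed between the libraries.

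*Slc27a5* (chr1:65576599-65587192, plus strand), the bile acid CoA ligase that acts just before Baat, was higher in both 6 hour libraries. The TPM values of the sevoflurane pair were 303 (control) and 327, those of the desflurane pair were 237 and 439, and this gave fold changes of 1.08 and 1.85 for sevoflurane and desflurane. The controls differed by 1.28-fold, more than sevoflurane and its control. The ratio of *Baat* to *Slc27a5* was 2.30 and 2.61 in the controls for sevoflurane and desflurane, 1.28 after sevoflurane, and 0.932 after desflurane, so that the transferase exceeded the ligase in both controls and no longer did so after desflurane.

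Among the transporters, *Slc10a1* and *Abcb11* had the smallest ranges of the 10 members over the 4 libraries, at 1.27-fold and 1.20-fold. *Slc10a1* (chr6:104617730-104631355, minus strand), the sodium-dependent uptake carrier, had TPM values of 643 and 505 for the sevoflurane control and 6 hour library and of 537 and 615 for those of desflurane. Each agent was 1.06-fold or 1.05-fold lower than the control of the other agent, and the groups overlapped. *Abcb11* (chr3:55480024-55587946, minus strand), the bile salt export pump, had TPM values of 308, 295, 284, and 343 in the sevoflurane control, the sevoflurane library, the desflurane control, and the desflurane library. The desflurane library was the highest and the desflurane control the lowest.

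*Abcb4* (chr4:22134805-22192472, minus strand), which moves phosphatidylcholine into bile, had the widest range of the transporters. Its TPM value was 61.0 in the sevoflurane control, 53.5 after sevoflurane, 44.9 in the desflurane control, and 83.1 after desflurane. The desflurane library was the highest, at 1.85-fold over its own control, although it was 1.36-fold over the sevoflurane control. The sevoflurane library was 1.14-fold lower than its own control but 1.19-fold higher than that of desflurane. The ratio of *Abcb11* to *Abcb4* was 5.05, 5.52, and 6.34 in the sevoflurane control, sevoflurane library, and desflurane control, and 4.12 after desflurane.

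**Figure D2:**
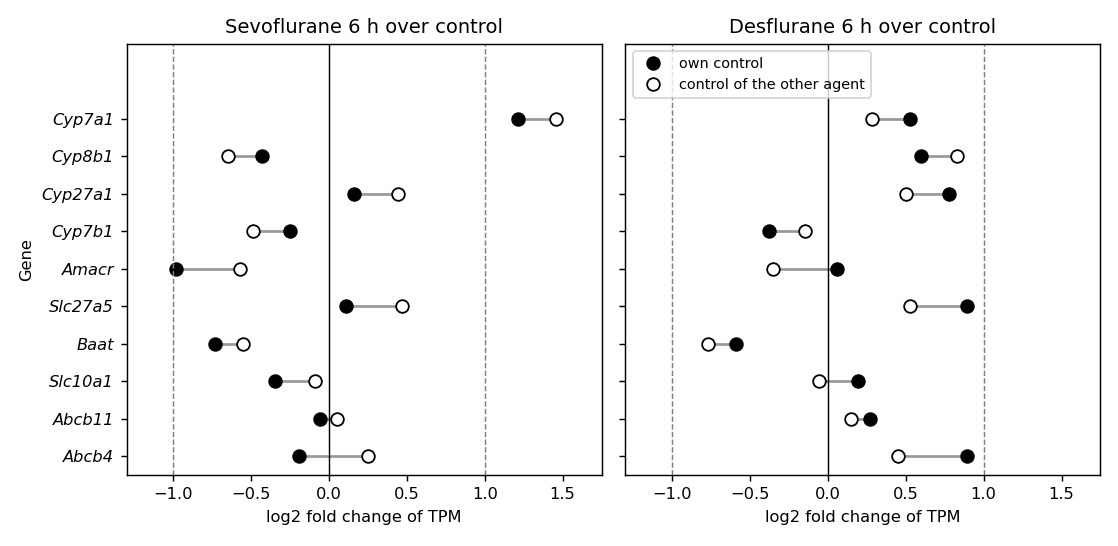
Log2 fold change of TPM for the 10 genes after 6 hours of sevoflurane (left) and desflurane (right), relative to the own control (filled) or the control of the other agent (open), with broken lines at 2-fold. *Cyp7a1* is past 2-fold with sevoflurane under both controls, *Baat* is below 0 in all 4 comparisons, and the sign for *Amacr* and *Slc10a1* with desflurane and for *Abcb11* and *Abcb4* with sevoflurane depends on the control.

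Considered together, 1 of the 10 members was upregulated more than 2-fold by sevoflurane, in a comparison in which 2.23% of 9754 genes were upregulated, and 0 members were downregulated, compared with 3.30% of the genes. Desflurane changed 0 of the 10 members past the limits, where 2.79% of 9855 genes were upregulated and 1.48% were downregulated. Without the limits, 3 members were higher and 7 were lower with sevoflurane, whereas 8 were higher and 2 were lower with desflurane, with *Amacr* among the 8 although it was lower after median-of-ratios scaling and with FPKM. The share of all genes that were higher was 56.5% and 66.6%, respectively. For the members, the median change in log2(TPM + 1) was -0.20 under sevoflurane and 0.39 under desflurane. Relative to the control of the other agent these medians were -0.02 and 0.22. In these crossed comparisons, *Cyp7a1* was again the only member past the limits with sevoflurane, where 2.52% of genes were higher and 2.59% were lower, and 0 members passed with desflurane, where the shares were 2.84% and 1.58%.

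The control livers also differed from each other. In 8 of the 10 members, the control rat for desflurane had the lower value, with a median log2 difference (desflurane minus sevoflurane) of -0.25 compared with -0.03 for all genes, and only *Cyp8b1* and *Cyp7b1* were higher. Of all genes, 45.1% were higher in the desflurane control. None of the 10 members differed more than 2-fold between the controls, where 2.34% of 9756 genes did so in either direction. After 6 hours, 8 members were higher with desflurane than with sevoflurane, with a median log2 difference of 0.31 compared with 0.06 for all genes, and *Cyp7a1* and *Baat* were lower. The share of all genes that were higher with desflurane was 58.6%. The summed TPM value of the 10 members was 2990 in the sevoflurane control, 2417 after sevoflurane, 2553 in the desflurane control, and 2996 after desflurane.

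Both 6 hour libraries were higher than both controls for *Cyp7a1*, *Cyp27a1*, and *Slc27a5*, 3 of the 10 members, compared with 33.3% of the 9993 genes with a TPM value higher than 2 in any library. Both were lower than both controls for *Cyp7b1* and *Baat*, 2 of the 10 members, compared with 13.3% of all genes. After median-of-ratios scaling, *Amacr* joined the latter group, and the shares of all genes were 22.4% and 22.7%. The counts of members are thus similar to those among all genes.

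**Figure D3:**
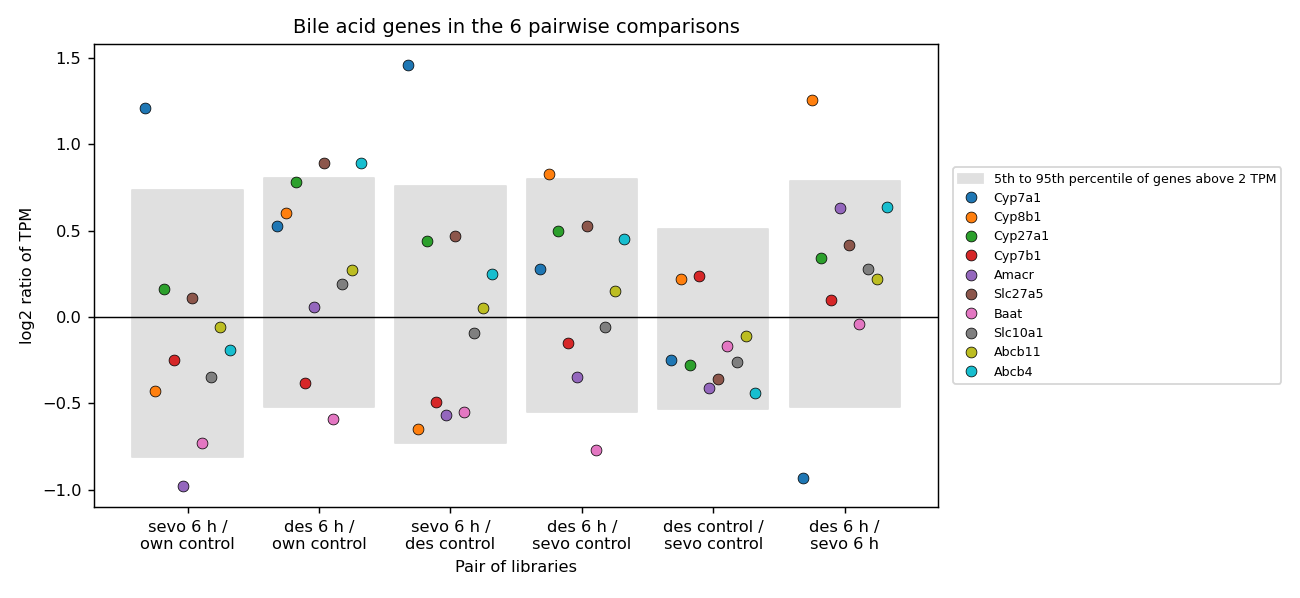
Log2 ratios of TPM for the 10 genes in the 6 pairs of libraries, with the grey band between the 5th and 95th percentile of the genes that had a TPM value higher than 2 in either library of the pair. *Cyp7a1* and *Amacr* lie outside the band for sevoflurane and its own control, *Slc27a5*, *Abcb4*, and *Baat* for desflurane and its own control, and *Cyp7a1* and *Cyp8b1* for the 6 hour libraries of both agents, whereas none does for the controls.

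Other genes of the pathway were examined in lists by function. None of 9 other synthesis enzymes with a TPM value higher than 2 was changed more than 2-fold by either agent. Of all genes, 2.23% were upregulated and 3.30% downregulated with sevoflurane, and 2.79% and 1.48% with desflurane. The median log2 changes of the 9 enzymes were 0.02 for sevoflurane and 0.41 for desflurane. *Akr1d1*, the 5β-reductase, and *Akr1c14*, a 3α-hydroxysteroid dehydrogenase, were the most abundant of them. *Akr1d1* had TPM values of 1552 and 1063 for the sevoflurane control and 6 hour library and of 986 and 1647 for those of desflurane, and *Akr1c14* had 670 and 1159 for sevoflurane and 726 and 1092 for desflurane. Among the other transporters, sevoflurane upregulated 1 and downregulated 1 of 11, beside 2.23% and 3.30% of all genes, and desflurane upregulated 2 of 10, beside 2.79% of all genes. *Abcc3*, an export pump on the blood side of the hepatocyte, had TPM values of 5.96 and 16.1 for the sevoflurane control and 6 hour library (2.70-fold) and of 11.1 and 20.2 for those of desflurane (1.82-fold). With the controls exchanged, *Abcc3* was 1.44-fold higher with sevoflurane, short of the limit, and 3.39-fold higher with desflurane, past it. The sterol pump genes *Abcg5* and *Abcg8* were 2.81-fold and 2.69-fold higher with desflurane, and *Abcg8* was 0.309-fold with sevoflurane. Their TPM values in the sevoflurane and desflurane controls were 47.9 and 19.9 for *Abcg5* and 22.7 and 7.84 for *Abcg8*, so the controls alone differed more than 2-fold. With the controls exchanged, neither gene passed the limits with either agent.

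The regulators of bile acid synthesis included *Nr0b2* (SHP), a repressor of *Cyp7a1* and *Cyp8b1* transcription that is induced through the bile acid receptor *Nr1h4* (FXR). The sevoflurane control contained *Nr0b2* at a TPM value of 43.8, compared with 18.4 after sevoflurane, 16.6 in the desflurane control, and 23.5 after desflurane. This control stood apart from the other 3 libraries. *Nr0b2* after sevoflurane was therefore more than 2-fold lower relative to its own control, with a fold change of 0.419, but not relative to the desflurane control. *Nr1h4* had TPM values of 77.3, 102, 92.2, and 105 in the sevoflurane control, sevoflurane library, desflurane control, and desflurane library, and these fold changes were 1.32 and 1.14 relative to the own controls. *Nr5a2* and *Hnf4a*, activators of *Cyp7a1* and *Cyp8b1*, had fold changes between 0.820 and 1.16, and those of *Fgfr4*, the receptor of the intestinal signal that lowers *Cyp7a1*, were 1.32 and 0.942.

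In all, sevoflurane upregulated 1 and downregulated 3 of 21 regulators, and desflurane upregulated 2 and downregulated 0, where the shares of all genes were 2.23% and 3.30% for sevoflurane and 2.79% and 1.48% for desflurane. The list had median log2 changes of -0.04 and 0.21, respectively. *Onecut1* was 2.23-fold higher with sevoflurane but was 4.02-fold higher in the desflurane control than in the sevoflurane control, and its fold change with sevoflurane was 0.554 relative to the former. *Foxa2* was the lowest after sevoflurane, with a TPM value of 12.7 compared with 30.5 in its control, and it was 22.9 after desflurane compared with 44.5. *Nr1i3* (CAR) had fold changes of 0.430 with sevoflurane and 1.13 with desflurane. With the controls exchanged these were 0.610, no longer past the limit, and 0.795, in the other direction. *Nr1i2* (PXR) was 2.82-fold higher with desflurane and 1.79-fold with sevoflurane, and it was above 2-fold for both agents relative to the control of the other. *Ppargc1a*, a coactivator induced in fasted liver, had TPM values of 2.90 and 13.5 for the desflurane control and 6 hour library (4.64-fold) and of 4.23 and 5.08 for those of sevoflurane.

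Of 6 genes that sulfate, hydroxylate, or glucuronidate bile acids, desflurane upregulated *Cyp3a9* (3.65-fold) and *Cyp3a18* (4.06-fold), and sevoflurane changed 0 past the limits, where 2.79% and 2.23% of all genes were upregulated by desflurane and sevoflurane. For *Cyp3a18*, control TPM values were 476 for sevoflurane and 142 for desflurane, and those at 6 hours were 599 and 574. The desflurane control was the only low library for this gene, and relative to the sevoflurane control the desflurane library was 1.21-fold higher. Members of the Cyp3a family share reads with close paralogs, and their separate values are uncertain.

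**Figure D4:**
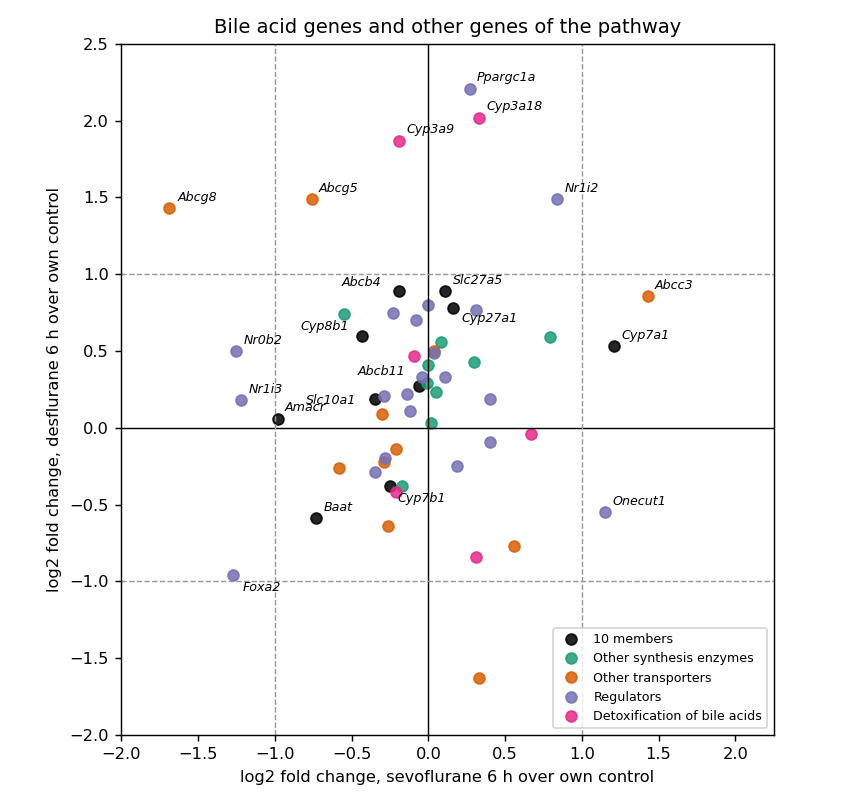
Log2 fold change of TPM with sevoflurane against that with desflurane, each relative to its own control, for the 10 genes (black) and the other pathway genes with a TPM value higher than 2 in at least 1 library and above 0 in all 4. Broken lines mark 2-fold, and names are given for the 10 genes and for genes past the limits. The unnamed transporter below the lower line is *Slc10a2*, which was not called because its TPM values with desflurane (1.88 in the control and 0.606 at 6 hours) were under the limit of 2. *Cyp7a1* lies at 1.21 and 0.53, and *Abcg8* and *Nr0b2* lie to the left of 0 with sevoflurane and above 0 with desflurane.

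The genes with the pattern most like that of *Cyp7a1* were found by the Euclidean distance of centered log2(TPM + 1) values over the 4 libraries, among 9135 other genes that exceeded 2 TPM in each of them. These were *Coq10b*, *Card19*, *Tgfb3*, *Ndc1*, and *Tat*, at distances of 0.167, 0.189, 0.191, 0.270, and 0.286. The most abundant was *Tat*, tyrosine aminotransferase, with TPM values of 234 and 464 for the sevoflurane control and 6 hour library and of 212 and 241 for those of desflurane. For *Cyp8b1*, the nearest genes were *Btg2*, *P2ry13*, *N5*, *Cyp2j3*, and *RT1-CE15*, at distances between 0.110 and 0.219. *Cyp2j3* had TPM values of 53.2 and 37.4 for the sevoflurane control and 6 hour library and of 54.3 and 80.8 for those of desflurane. These distances rest on 4 libraries and are a description only.

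Enzymes of bile acid synthesis are not evenly distributed over the liver lobule, and markers of its zones were examined in the same libraries. The summed TPM value of 6 pericentral markers was 4920 in the sevoflurane control, 3814 after sevoflurane, 3043 in the desflurane control, and 4998 after desflurane. Their sum, most of which is *Cyp2e1* and *Cyp1a2*, was thus lower with sevoflurane and higher with desflurane relative to the own controls, as were the levels of *Cyp8b1*, *Amacr*, *Slc10a1*, *Abcb11*, and *Abcb4*. Of the 6 markers, 4 had these directions, and *Oat* and *Rhbg* had the opposite direction with both agents. Of the remaining members, *Cyp7a1*, *Cyp27a1*, and *Slc27a5* were higher and *Cyp7b1* and *Baat* were lower with both agents. With the controls exchanged, the pericentral sum was higher with sevoflurane (3814 compared with 3043) and nearly equal with desflurane (4998 compared with 4920). The sum of 6 periportal markers was 510 and 524 in the sevoflurane and desflurane controls and 610 and 613 in the 6 hour libraries. With sevoflurane, 3 of the 6 were higher, among them *Sds* (28.8 in the control and 109 at 6 hours), and 3 (*Hal*, *Cyp2f4*, and *Cdh1*) were lower. With desflurane, 4 were higher and 2 were lower. The part of zonal sampling in the values of the 10 members was not tested.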

How the data were processed

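Paired-end reads were trimmed by the authors with sickle 1.33. Mapping to rn6 used HISAT2 2.1.0, sorting used SAMtools 1.10, and gene abundances were estimated with StringTie 2.1.2 on the refGene annotation. Whether strand was used in this step is not given in the sources used here. The deposited tables give a TPM signal and a coverage signal per gene, and the deposited FPKM values were normalized for library size by StringTie. In the TPM column the assembled rows of each library add up to 1000000, and the annotated rows, on the same scale, add up to between 779824 and 813454. Annotated rows longer than 200 base pairs were used here, and TPM values were summed by symbol. The aligned sequence was derived from the median ratio of coverage to FPKM. Calls followed the rule of the paper, which asks for more than 2 TPM in the higher library and for a difference above 2-fold, without a pseudocount. This gave 218 upregulated and 322 downregulated genes with sevoflurane and 275 and 146 with desflurane. These counts are close to those in the supplement of the paper but not the same. The share of genes called was taken among genes with a TPM value higher than 2 in either library of the pair. Medians of lists used a pseudocount of 1 TPM. With 1 library per condition no condition was tested against another, a fit that pools the agents was not run, and read counts were not used, so counting intervals were not calculated.

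The members, lists, and rules were chosen with earlier results of these data known. Genes named are the 10 members, the pathway genes past the limits with either agent, *Nr1h4*, *Nr0b2*, *Nr5a2*, *Hnf4a*, and *Fgfr4*, and the 5 genes nearest to *Cyp7a1* and *Cyp8b1*. *Akr1d1* and *Akr1c14* were named after their values were seen. Outside this rule, single zone markers were named to describe their sums, and *Slc10a2* to identify a point in a figure. *Klb*, *Slco1a4*, and *Slc51b* had no row under these symbols. Python 3.11.15 with numpy 2.4.6, pandas 2.3.3, and matplotlib 3.10.9 was used, and calls were first checked on simulated data.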

Additional observations from a re-analysis of the deposited data

Results flagged for a closer look

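Among the 10 members, 5 were lower with sevoflurane and higher with desflurane relative to the own controls, and each direction rests on 1 library, so the difference was not tested. Of all genes, 56.5% were higher with sevoflurane and 66.6% with desflurane. The share of all genes with opposite directions was not calculated, so this count cannot be called particular to the members. The desflurane fold change divided by the sevoflurane fold change was 2.05 for *Cyp8b1*, 2.07 for *Amacr*, 1.46 for *Slc10a1*, 1.26 for *Abcb11*, and 2.11 for *Abcb4*. For *Cyp8b1*, the opposite directions remained relative to the control of the other agent. For *Amacr*, *Slc10a1*, *Abcb11*, and *Abcb4*, one of the directions changed with that control. Without the controls, the desflurane library was 2.39-fold, 1.55-fold, 1.22-fold, 1.16-fold, and 1.55-fold higher than the sevoflurane library for the 5 genes in the order given.

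Of the 15 other pathway genes chosen by rule, 9 also had opposite directions. The rule took in every pathway gene past the limits in these same comparisons, so this count does not describe the pathway. The same quotient was 4.77 for *Abcg5*, 8.71 for *Abcg8*, 3.37 for *Nr0b2*, 1.41 for *Nr5a2*, 1.17 for *Hnf4a*, 2.63 for *Nr1i3*, and 4.18 for *Cyp3a9*. It was 0.717 for *Fgfr4* and 0.308 for *Onecut1*, which were higher with sevoflurane and lower with desflurane. It was 2.44 for *Akr1d1*, which was named after its values were seen, and 2.12 for *Cyp2j3*, which was picked for its likeness to *Cyp8b1*. None of these differences was tested.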

How the results depend on the processing

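Fold changes of the 10 members with both agents were recomputed under 14 alternatives, and 260 of 280 values moved by less than the difference between the controls for the same gene. This count was largely fixed in advance. Other TPM or fold limits, no length filter, and the highest row of a symbol could not move these fold changes. The mean of both controls always moves them by less than that difference. The control of the other agent moves them by exactly that difference, so its values were sorted by rounding only. The direction changed in 10 of the 280 values, and none of these 10 fold changes was past the limits. That of *Slc27a5* with sevoflurane turned to 0.996 when assembled rows were added and to 0.914 when they replaced the annotated row. The number of members called with sevoflurane was 2 after median-of-ratios scaling, after rescaling of annotated rows, and with FPKM, since *Amacr* then passed, and 3 with a fold limit of 1.5. With desflurane, 5 members passed a fold limit of 1.5, and 1 member (*Baat*, 0.347-fold) passed when the assembled row replaced the annotated row, a setting chosen after the data were seen. The share of all genes called under these alternatives was not calculated, for either agent. A limit of 1.5 also lets more genes pass, so these counts cannot be called particular to the members. The median fold change of the members for the desflurane library relative to the sevoflurane control was 1.16, and it was 0.975 with FPKM, and that for the sevoflurane library relative to the desflurane control was 0.988 and 1.08 with FPKM. *Cyp7a1* passed with sevoflurane under all 14 alternatives, with fold changes between 2.24 and 2.75. The alternatives named above as unable to move a fold change could not undo this call either. Nor could the settings that used assembled rows, since for *Cyp7a1* these rows had the same TPM values as the annotated gene. Assembled rows largely repeat the annotated rows, so adding them counts the same reads again. No paired analysis was possible because the labels give no replicate numbers and each comparison sets 1 library against 1 library, so that no library could be left out within a condition either. A fit that pools both agents against both controls was not run.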

Other observations

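The deposited data also hold rows that StringTie assembled at the same loci. StringTie was run on the refGene annotation, so a row equal to the annotated gene is not a separate check of its model. How well the annotated gene models hold in this liver RNA was not tested. For *Cyp7a1*, *Cyp27a1*, and *Slc10a1*, an assembled row with the start and end of the annotated gene was present in 4 of 4 libraries. For *Cyp8b1*, the assembled row on the same strand extended between 25365 and 30072 bases past the annotated 3′ end in all 4 libraries, with TPM values of 69.0, 41.7, 75.7, and 91.1 in the sevoflurane control, sevoflurane library, desflurane control, and desflurane library, averaged over the longer model. The order of the libraries was the same as for the annotated gene.

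For *Baat*, the assembled row extended 40642, 40725, and 40651 bases past the annotated 3′ end in the sevoflurane control, desflurane control, and desflurane library, and it had the annotated ends after sevoflurane. Its TPM value was 507 in the sevoflurane control, 420 after sevoflurane, 620 in the desflurane control, and 215 after desflurane, compared with 696, 420, 617, and 409 for the annotated gene. For *Abcb11*, 2 assembled rows covered the gene in 3 libraries and 1 row covered it after desflurane.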
